A study of Mus musculus with 9 samples.

Results

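The genes described here encode splicing regulators and neural RNA-binding proteins: partners and relatives of SFPQ, hnRNP and SR proteins, and the PTB, Rbfox, Nova, Elavl, Musashi, muscleblind, Celf and STAR families. The set held 46 genes chosen by name, and a gene was measured through the probe sets that the array's platform table gave to it alone, older symbols included. Of these, 45 were found and tested among 16854 genes, through 1061 probe sets, of which 1010 had a signal above the filter on low values. Rbfox3 is not named in that table and was not analysed here.

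Dissected cerebral cortex from E13.5 mouse embryos was profiled on Affymetrix exon arrays, 1 array per embryo sample and 3 per group. The control embryos were labelled wild type, the second group carried 1 mutant copy (Sfpq+/-) and the third none that was intact (Sfpq-/-), as the titles and genotype fields give them. The note on RNA extraction repeats the heterozygous genotype and does not list Sfpq-/-, so the groups rest on those titles and fields. No Cre line, promoter or further allele is named in the labels, and neither are the deleted exons, the litters or the strain. Whether the embryos of a group were littermates is not stated, and the p-values cover the spread among these 9 samples and nothing beyond. The tissue is a whole dissected cortex, so fewer cells of a type and less RNA per cell cannot be told apart.

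SFPQ is a nuclear RNA-binding protein that takes part in transcription, splicing and the structure of paraspeckles. Splicing regulators bind short motifs in nascent RNA and raise or lower the use of nearby exons, while many neural RNA-binding proteins also set the stability and translation of messenger RNAs. In the embryonic cortex the balance shifts from proteins of dividing progenitors, such as PTBP1 and the Musashi proteins, to those of young neurons, such as the neuronal ELAVL, NOVA, RBFOX and CELF proteins and SRRM4.

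Array medians lay between 5.65 and 5.70 on the log2 scale of the deposited signals. The 12 Sfpq probe sets with a control mean above 10 averaged 12.09 ± 0.02 in control, 11.96 ± 0.11 in Sfpq+/- and 10.13 ± 0.17 in Sfpq-/- cortex (log2 signal, SD, n = 3 each), so the Sfpq signal sets the Sfpq-/- arrays apart and does not separate Sfpq+/- arrays from controls. Markers of young neurons averaged 11.07 to 11.15 on control and 11.11 to 11.22 on Sfpq-/- arrays (9 genes), and those of radial glia 10.62 to 10.79 and 10.56 to 10.87 (9 genes). Both lists were bright on all 9 arrays. Of the young neuron markers Neurod6 fell (-0.41, limma adjusted p = 0.00848) and Ina rose (0.42, limma adjusted p = 0.0116), and of 8 markers of the ganglionic eminence and interneurons Gad1 rose (0.98, limma adjusted p = 0.0102) and Sst fell (-0.69, limma adjusted p = 0.0288). The interneuron list averaged 8.47 to 9.40 on control and 8.66 to 8.92 on Sfpq-/- arrays. Markers of intermediate progenitors were lower in Sfpq-/- cortex, with 4 of 5 called and a mean level of 9.73 to 9.91 against 10.35 to 10.37 in controls, and those of microglia were higher, with 5 of 8 called and 8.01 to 8.10 against 7.74 to 7.83. The part that these shifts have in the results for the RNA-binding protein genes was not tested. The level of a gene is the mean log2 signal of its kept probe sets, and a call means an adjusted p under 0.05 over all 16854 genes in limma with Benjamini-Hochberg adjustment. The median over genes of the standard error of a log2 change was 0.10.

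Khdrbs2, Srrm4 and Msi2 were lower by 1.73-fold to 2.57-fold, Elavl2 was lower by 1.25-fold and Mbnl2 was higher by 1.32-fold. In all, 5 of 45 genes were called against control (11.1%), beside 12.1% of all genes tested, so the number called was near that of the array as a whole. The lower calls were 4 of 45, beside 6.12% of all genes, and the single higher call stood beside 5.98%. The median log2 change over the 45 genes was 0.04, against 0.03 over all genes. The arrays of Sfpq-/- and control cortex did not overlap for 14 of 45 genes (31.1%), beside 26.9% of all genes.

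**Figure D1:**
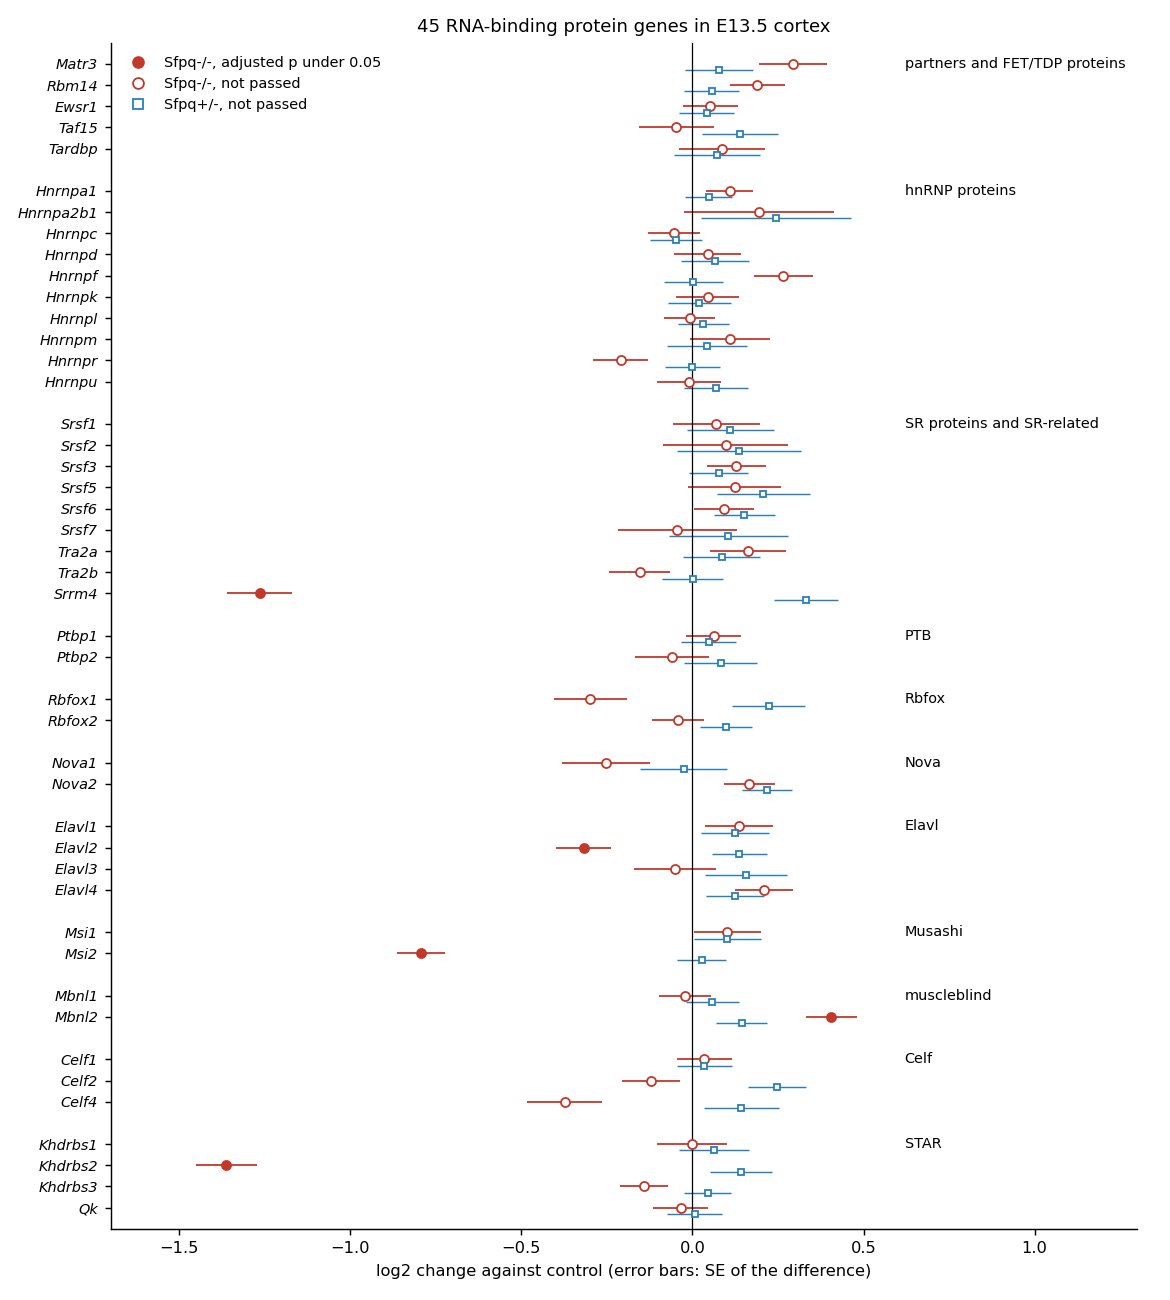
Log2 change against control of each of the 45 genes, grouped by family, in Sfpq-/- (circles, filled where the adjusted p was under 0.05) and Sfpq+/- cortex (squares), with the standard error of the difference. Khdrbs2 at -1.36, Srrm4 at -1.27 and Msi2 at -0.79 lie far to the left of the other genes, Mbnl2 at 0.41 lies farthest to the right, and 42 of 45 squares lie right of 0.

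RefSeq sequences just before the annotated start were taken for the called genes, to show what kind of DNA precedes genes that moved in opposite directions. The table of assembly GRCm38.p6 held the 100 bases directly before the annotated span for 4 of the 5 genes, and Srrm4 had none there. Capitals mark GGGCGG (the GC box) and CCAAT, each searched on both strands with TATAAA. The strings do not overlap each other.
Khdrbs2, chr1:32172502-32172601, plus strand: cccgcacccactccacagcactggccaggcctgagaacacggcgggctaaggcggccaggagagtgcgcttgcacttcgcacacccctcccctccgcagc
Msi2, chr11:88718307-88718406, minus strand: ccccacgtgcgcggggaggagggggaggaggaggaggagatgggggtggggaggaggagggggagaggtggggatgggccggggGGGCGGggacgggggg
Elavl2, chr4:91400109-91400208, minus strand: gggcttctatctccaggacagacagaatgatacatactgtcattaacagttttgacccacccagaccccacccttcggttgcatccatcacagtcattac
Mbnl2, chr14:120275552-120275651, plus strand: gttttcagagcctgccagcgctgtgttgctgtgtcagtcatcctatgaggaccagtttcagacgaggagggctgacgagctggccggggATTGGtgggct

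The upstream stretches of Khdrbs2 and Msi2 were rich in G and C, at 70% and 79%, and held 7 and 6 CG pairs. That of Mbnl2 had 59% and 4 CG pairs, and that of Elavl2 had 48% and 1 CG pair. Over the 23204 genes with such a stretch the medians were 53% and 2 CG pairs. The GC box was found in the Msi2 stretch and in 22.6% of all stretches, CCAAT in that of Mbnl2 and in 19.9% of all, and TATAAA in none of the 4 and in 6.3% of all. A match is a description of these letters and not a binding site.

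Khdrbs2 encodes SLM1, a neuronal STAR-family protein that regulates the alternative splicing of neurexins. Its level was 8.97, 8.96 and 8.97 on the control arrays, 8.95, 9.23 and 9.14 on the Sfpq+/- arrays and 7.52, 7.73 and 7.55 on the Sfpq-/- arrays. The Sfpq-/- arrays were all more than 1 log2 unit below every other array. Relative to control the gene fell 2.57-fold (log2 change -1.36, SE 0.09, limma adjusted p = 4.21e-06), and relative to Sfpq+/- it fell 2.83-fold (log2 change -1.50, limma adjusted p = 1.71e-06).

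The probe sets of Khdrbs2 shared the direction of the fall but not its size. All 12 kept probe sets were lower in Sfpq-/- than in control cortex, and 7 of them passed the probe set test, all with changes below -1. The probe set with the largest change, 4669171, read 8.70, 8.53 and 8.49 in controls and 5.78, 6.01 and 5.65 in Sfpq-/- cortex. Its log2 change was -2.76 (limma adjusted p = 0.000159). The Sfpq-/- signals lay near the 5.64 of the filter on low signal, so the fold is not given. Probe set 4474019, with 10.35, 10.40 and 10.11 in controls and 10.01, 10.37 and 9.51 in Sfpq-/- cortex, overlapped between the groups (log2 change -0.32, limma adjusted p = 0.717). Across the gene the changes therefore ran from -2.76 to -0.32.

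The other STAR proteins are Sam68 (Khdrbs1), SLM2 (Khdrbs3) and Quaking (Qk), of which SLM2 is the close neuronal relative of SLM1. None of these genes was called. Khdrbs3 differed by -0.14 (SE 0.07, limma adjusted p = 0.239), with Sfpq-/- arrays at 10.44, 10.39 and 10.45 below control arrays at 10.60, 10.59 and 10.51. Khdrbs1 (limma adjusted p = 0.997) and Qk (-0.04, limma adjusted p = 0.855) had overlapping arrays.

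Srrm4 encodes nSR100, a neural SR-related protein that promotes the inclusion of neuronal microexons. Its control arrays were at 9.33, 9.21 and 9.19, its Sfpq+/- arrays at 9.74, 9.53 and 9.45 and its Sfpq-/- arrays at 8.01, 7.86 and 8.06. The 3 groups were fully separate, with Sfpq+/- highest and Sfpq-/- lowest. Srrm4 fell 2.40-fold against control (log2 change -1.27, SE 0.09, limma adjusted p = 8.3e-06) and 3.02-fold against Sfpq+/- (log2 change -1.60, limma adjusted p = 1.64e-06). The Sfpq+/- level was 0.33 above control, with an unadjusted p of 0.00499 and a limma adjusted p of 0.886.

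The probe sets of Srrm4 differed widely in the size of the fall. All 22 kept probe sets had a negative change. Of these, 15 were below -1, with a median of -1.69, and 14 of the 15 passed the probe set test. Another 5, with changes from -0.43 to -0.17, had control means between 8.16 and 11.14, well above the filter; none passed, and arrays did not overlap for 3 of them. The last 2 lay in between, at -0.75 and -0.56, and did not pass.

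Single probe sets of Srrm4 show the contrast. Probe set 4793219 read 10.58, 10.50 and 10.79 in controls and 8.61, 8.73 and 8.92 in Sfpq-/- cortex (log2 change -1.87, limma adjusted p = 0.000551). Probe set 4727376 read 11.12, 10.98 and 11.32 in controls and 10.82, 10.88 and 11.14 in Sfpq-/- cortex, with overlapping arrays (log2 change -0.19, limma adjusted p = 0.754). To compare a probe set with its own gene, its signal was taken relative to the mean of the gene's other kept probe sets on the same array. In that measure 4727376 was 2.18-fold higher in Sfpq-/- cortex (limma adjusted p = 0.00746), as the rest of the gene had fallen, and all 5 weakly changed probe sets passed. These 5 were picked for a small change in a gene that fell, so the passes add no separate evidence. That of 4923373 (limma adjusted p = 0.0411) was lost in 8 of 17 alternatives. Probe set 5488344 passed the probe set test (limma adjusted p = 0.00754) but not in relative signal (limma adjusted p = 0.211). Its controls ranged from 6.80 to 8.35. Its Sfpq-/- arrays, at 5.59, 5.19 and 5.15, lay below the 5.64 of the filter on low signal, so its fold is not given.

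The classical SR proteins bind exonic enhancers and are required for both constitutive and regulated splicing. None of the 8 other genes of this group was called: Srsf1, Srsf2, Srsf3, Srsf5, Srsf6, Srsf7, Tra2a and Tra2b had log2 changes from -0.15 (Tra2b) to 0.16 (Tra2a) against control, and no limma adjusted p among them was under 0.338. The third control array was the lowest control for each of these 8 genes. Srsf2, for example, was at 11.23, 11.21 and 10.58 in controls and at 11.15, 11.35 and 10.82 in Sfpq-/- cortex, and only the second Sfpq-/- array left the range of the controls.

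Musashi proteins keep neural progenitors in a dividing state by acting on target messenger RNAs. Msi2 was at 9.94, 9.84 and 9.88 in controls, 9.96, 9.89 and 9.89 in Sfpq+/- cortex and 9.13, 9.13 and 9.01 in Sfpq-/- cortex. The Sfpq-/- arrays lay below all others, and control and Sfpq+/- arrays overlapped. The gene fell 1.73-fold against control (log2 change -0.79, SE 0.07, limma adjusted p = 2.93e-05). Its relative Msi1 was at 11.46, 11.39 and 11.27 in controls and 11.49, 11.63 and 11.31 in Sfpq-/- cortex and was not called (log2 change 0.10, limma adjusted p = 0.609).

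The mean of Msi2 joins probe sets with very unlike changes. Of 30 kept probe sets, 16 changed by less than -1, between -1.75 and -1.11, and all 16 passed the probe set test. These were bright, with control means from 8.04 to 12.80 and a median of 11.81. Probe set 4329149, for example, read 12.06, 11.97 and 11.90 in controls and 10.20, 10.51 and 10.14 in Sfpq-/- cortex, a 3.24-fold fall (limma adjusted p = 0.000484).

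A few dimmer probe sets of Msi2 lay higher in Sfpq-/- cortex. Probe set 5525282 read 7.91, 7.34 and 7.11 in controls, 8.18, 7.89 and 7.63 in Sfpq+/- and 8.46, 8.96 and 8.42 in Sfpq-/- cortex. All Sfpq-/- arrays were above all controls, and the log2 change of 1.16 missed the threshold (limma adjusted p = 0.052), while relative to the rest of the gene it was 4.06-fold higher (limma adjusted p = 0.00467). In all, 3 probe sets had log2 changes above 0.5 and none of them passed at this level, and 4996418, the brightest at about 12.88 in controls, fell by only 0.81 (limma adjusted p = 0.0107).

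**Figure D2:**
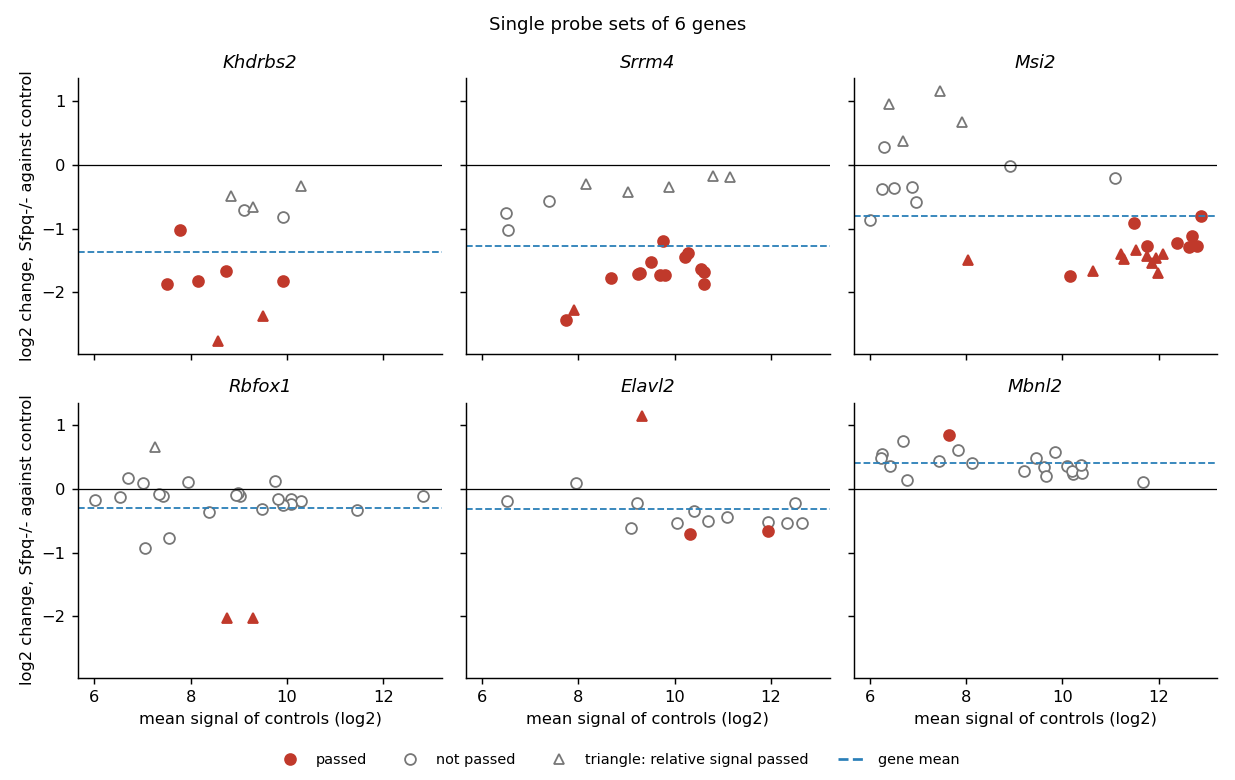
Log2 change of each kept probe set in Sfpq-/- against control (vertical axis) by its mean log2 signal in controls (horizontal axis), for 6 genes. Filled red symbols passed the probe set test, triangles passed in relative signal, and the dashed line is the gene's change. The probe sets of Srrm4 range from below -2 to near 0 and those of Msi2 reach above 0, Rbfox1 has 2 probe sets near -2 among flat ones, and all 20 probe sets of Mbnl2 lie above 0.

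ELAVL proteins bind AU-rich elements; ELAVL2, ELAVL3 and ELAVL4 are neuronal and ELAVL1 (HuR) is ubiquitous. Elavl2 was at 10.53, 10.38 and 10.29 in controls, 10.60, 10.49 and 10.53 in Sfpq+/- and 10.08, 10.14 and 10.03 in Sfpq-/- cortex. The Sfpq-/- arrays were below all others. The fall was 1.25-fold against control (log2 change -0.32, SE 0.08, limma adjusted p = 0.0261) and 1.37-fold against Sfpq+/- (limma adjusted p = 0.00306), a call lost with no filter on low signal (limma adjusted p = 0.0843) and with the median of the probe sets (log2 change -0.08, limma adjusted p = 0.683). The call against control was lost without control 1 (limma adjusted p = 0.0933), control 2 (0.076), Sfpq-/- 1 (0.0877) or Sfpq-/- 3 (0.0536). The median of the Elavl2 probe sets in place of their mean gave a log2 change of -0.01. That median is the middle signal on each array and not the middle of the single probe set changes, which was -0.51.

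Within Elavl2, 1 probe set rose while others fell. Of 15 kept probe sets, 13 were lower and 2 higher in Sfpq-/- cortex. Lower calls were 4526745 (log2 change -0.70, limma adjusted p = 0.0272), lost in 9 of 17 alternatives, and 5137763 (log2 change -0.67, limma adjusted p = 0.0308), lost in 10 of 17. Probe set 5276156 read 9.68, 9.01 and 9.31 in controls, 9.71, 9.51 and 9.58 in Sfpq+/- and 10.44, 10.56 and 10.43 in Sfpq-/- cortex. It was above every other array in each Sfpq-/- sample and rose 2.21-fold (limma adjusted p = 0.0111), or 2.96-fold relative to the other Elavl2 probe sets (limma adjusted p = 0.00212).

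Elavl4 also had probe sets that rose, while the gene mean did not pass. Its level differed by 0.21 (limma adjusted p = 0.158), and 14 of its 17 probe sets changed by less than 0.5. Probe set 5094331 read 7.39, 6.89 and 7.29 in controls and 8.66, 8.19 and 8.56 in Sfpq-/- cortex, a 2.43-fold rise (limma adjusted p = 0.0091). The dimmer 4924563 rose from 5.82, 5.47 and 5.73, near the 5.64 of the filter, to 7.05, 6.72 and 6.56 (limma adjusted p = 0.0196), a call lost in 5 of 16 alternatives and given without a fold. Elavl1 (0.14, limma adjusted p = 0.464) and Elavl3 (-0.05, limma adjusted p = 0.858) had no called probe set.

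Muscleblind proteins switch splicing from embryonic to adult patterns. Mbnl2 was at 8.79, 8.63 and 8.71 in controls, 8.91, 8.80 and 8.86 in Sfpq+/- and 9.18, 9.09 and 9.08 in Sfpq-/- cortex. The 3 groups did not overlap, and Sfpq+/- lay in between. Its difference of 0.14 from control did not pass (limma adjusted p = 0.886). Mbnl2 rose 1.32-fold against control (log2 change 0.41, SE 0.07, limma adjusted p = 0.0038), the only higher call among the 45 genes, and 1.2-fold against Sfpq+/- (limma adjusted p = 0.0413). With the median of its probe sets the change against control was 0.32 and missed the threshold (limma adjusted p = 0.0679).

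The rise of Mbnl2 was shared by its probe sets. All 20 kept probe sets were higher, from 0.11 to 0.85, and 1 passed alone (5033062, log2 change 0.85, limma adjusted p = 0.0495), a call lost in 11 of 17 alternatives. None passed in relative signal. Mbnl1 was at 9.36, 9.36 and 9.33 in controls and 9.37, 9.42 and 9.19 in Sfpq-/- cortex and was not called (log2 change -0.02, limma adjusted p = 0.908).

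**Figure D3:**
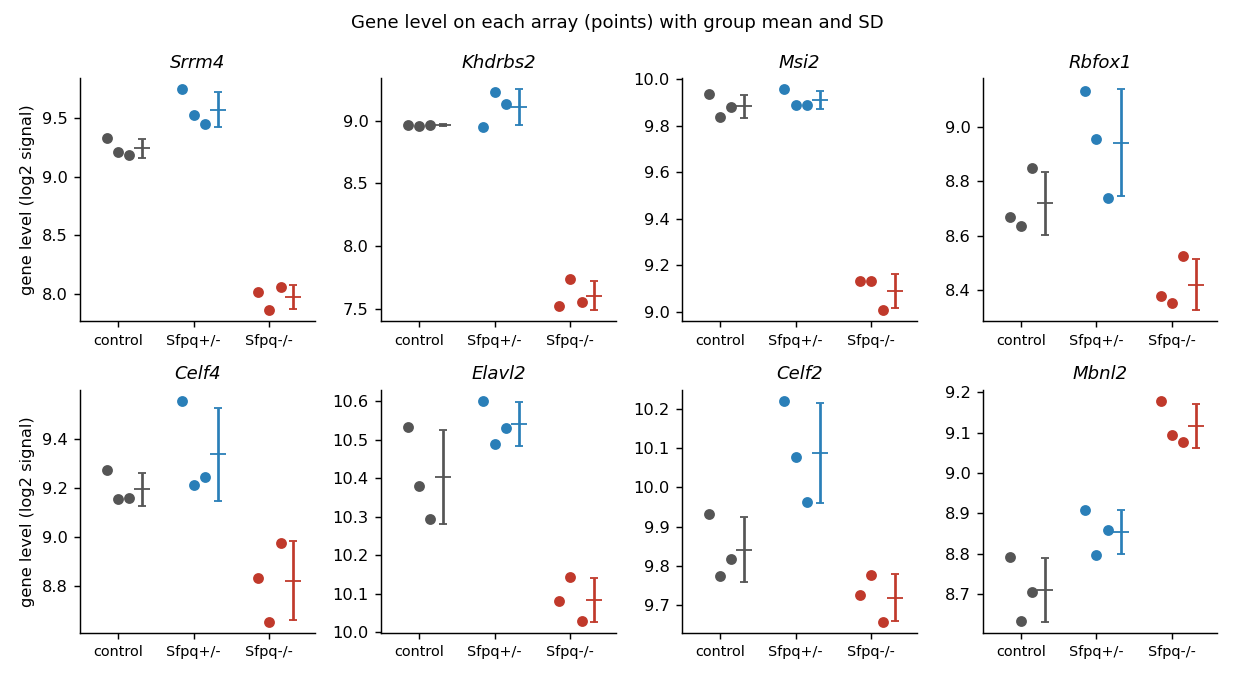
Gene level (mean log2 signal) on each of the 9 arrays for the 8 genes called in Sfpq-/- against control or against Sfpq+/-, with group means and SD, each panel on its own scale. In 7 panels the Sfpq-/- arrays lie below the Sfpq+/- arrays, and in the Mbnl2 panel they lie above. For Celf2, 1 Sfpq-/- array lies just above the lowest control.

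RBFOX proteins bind GCAUG and regulate exons of neurons and muscle. Rbfox1 was at 8.67, 8.64 and 8.85 in controls, 9.13, 8.96 and 8.74 in Sfpq+/- and 8.38, 8.35 and 8.53 in Sfpq-/- cortex. The Sfpq-/- arrays were the lowest, and control and Sfpq+/- arrays overlapped. The gene mean differed by -0.30 from control (limma adjusted p = 0.106). The median signal of the Rbfox1 probe sets on each array differed by -0.62 and passed (limma adjusted p = 0.0115). The median of the single probe set changes was -0.16. The gene mean fell 1.44-fold against Sfpq+/- (log2 change -0.52, limma adjusted p = 0.0076).

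The largest changes of Rbfox1 were at 2 probe sets. Probe set 4397254 read 9.25, 9.13 and 9.53 in controls, 9.67, 9.76 and 9.86 in Sfpq+/- and 7.39, 7.31 and 7.16 in Sfpq-/- cortex, a 4.05-fold fall (limma adjusted p = 0.000325). Probe set 5394800 fell 4.08-fold, from 8.70, 8.83 and 8.75 to 6.84, 6.25 and 7.11 (limma adjusted p = 0.00141). Both passed in relative signal too, and 20 of the other 23 kept probe sets changed by less than 0.5, their control means reaching 12.82. Probe set 5397347 was 2.01-fold higher than in control relative to the rest of the gene (limma adjusted p = 0.00548). Its own change of 0.66 did not pass (limma adjusted p = 0.174). Its mean was 7.26 in control, 8.01 in Sfpq+/- and 7.93 in Sfpq-/- cortex, so the higher signal was not particular to Sfpq-/-. Rbfox2 was not called (log2 change -0.04, limma adjusted p = 0.807).

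CELF proteins bind GU-rich sequences; CELF4 is mostly neuronal. Celf4 was at 9.27, 9.15 and 9.16 in controls, 9.55, 9.21 and 9.24 in Sfpq+/- and 8.83, 8.65 and 8.97 in Sfpq-/- cortex. No Sfpq-/- array reached any other array. The difference of -0.37 from control lay just outside the threshold (SE 0.11, limma adjusted p = 0.0502), and the gene fell 1.43-fold against Sfpq+/- (log2 change -0.52, limma adjusted p = 0.00955). Of 24 Celf4 probe sets, 21 were lower, and 4828032 (log2 change -1.0, limma adjusted p = 0.0111) and 5544248 (log2 change -0.87, limma adjusted p = 0.0442) passed, the latter lost in 10 of 17 alternatives. Probe set 4773864 was 2.55-fold higher relative to the rest of Celf4 (limma adjusted p = 0.0436), a call lost in 10 of 17 alternatives. Its own change of 0.92 did not pass (limma adjusted p = 0.208).

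Celf2 was at 9.93, 9.77 and 9.82 in controls, 10.22, 10.08 and 9.96 in Sfpq+/- and 9.72, 9.78 and 9.66 in Sfpq-/- cortex. The Sfpq+/- arrays were above the others, and Sfpq-/- and control arrays overlapped. Against control the difference was -0.12 (limma adjusted p = 0.442). With the median signal of the Celf2 probe sets on each array it was -0.53 and passed (limma adjusted p = 0.0257). The median of the single probe set changes was -0.22. Against Sfpq+/- the gene fell 1.29-fold (log2 change -0.37, limma adjusted p = 0.0151). That call was lost without Sfpq+/- 1 (limma adjusted p = 0.0728), Sfpq+/- 2 (0.0517) or Sfpq-/- 1 (0.0548). Probe set 5121277 of Celf2 fell 2.19-fold against control, from 10.22, 10.16 and 10.52 to 9.05, 9.19 and 9.25 (limma adjusted p = 0.00727). Relative to the rest of Celf2, 5503835 was 1.72-fold higher (limma adjusted p = 0.027), a call lost in 8 of 17 alternatives. Its own change of 0.64 did not pass (limma adjusted p = 0.183).

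Celf1 had probe sets that changed in opposite directions around a mean that did not pass (log2 change 0.04, limma adjusted p = 0.852). Probe set 5070653 read 11.54, 11.50 and 11.44 in controls and 12.23, 12.43 and 12.17 in Sfpq-/- cortex, a 1.72-fold rise (limma adjusted p = 0.0147, lost in 3 of 17 alternatives). Probe set 4369707 read 10.36, 10.20 and 10.31 in controls and 9.59, 9.70 and 9.71 in Sfpq-/- cortex, a 1.54-fold fall (limma adjusted p = 0.0461) that was lost in 10 of 17 alternatives. Groups did not overlap at either, and 26 of 31 Celf1 probe sets changed by less than 0.5.

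NOVA proteins bind YCAY motifs and regulate synaptic exons. Nova2, the cortical form, was at 9.72, 9.58 and 9.61 in controls, 9.94, 9.83 and 9.80 in Sfpq+/- and 9.79, 9.79 and 9.84 in Sfpq-/- cortex. Controls lay below both mutant groups, and neither difference passed (0.17, limma adjusted p = 0.2, in Sfpq-/- and 0.22, limma adjusted p = 0.886, in Sfpq+/-). Nova1 differed by -0.25 in Sfpq-/- cortex, with control arrays spread from 9.06 to 9.61 (limma adjusted p = 0.268).

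PTBP1 represses neuronal exons in progenitors, and PTBP2 takes its place in young neurons. Ptbp1 was at 11.81, 11.74 and 11.67 in controls and 11.82, 11.90 and 11.69 in Sfpq-/- cortex, and the 95% interval of its difference ran from -0.11 to 0.24. Ptbp2 was at 11.12, 10.94 and 10.80 in controls and 11.03, 10.97 and 10.68 in Sfpq-/- cortex, with an interval from -0.30 to 0.18. Neither was called, and no probe set of either gene passed.

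Among the partners and relatives of SFPQ, Matr3 encodes matrin 3, a nuclear matrix protein that binds RNA, and Rbm14 a protein of paraspeckles. Matr3 was at 11.02, 10.90 and 10.80 in controls, 11.07, 10.91 and 10.98 in Sfpq+/- and 11.23, 11.36 and 11.02 in Sfpq-/- cortex, and the third Sfpq-/- array fell just short of the highest control. Of its 32 probe sets, 28 were higher in Sfpq-/- cortex, and none passed alone. Rbm14 had 14 of 15 probe sets higher. The FET-family genes Ewsr1 and Taf15 and the TDP-43 gene Tardbp differed by -0.05 to 0.09, with overlapping arrays, and none of the 5 genes was called.

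The hnRNP proteins coat nascent transcripts and often silence exons. Of the 10 genes none was called, and their log2 changes ran from -0.21 to 0.27. Hnrnpf was at 11.59, 11.55 and 11.42 in controls, 11.46, 11.55 and 11.54 in Sfpq+/- and 11.85, 11.87 and 11.63 in Sfpq-/- cortex, with Sfpq-/- arrays above all others (log2 change 0.27, limma adjusted p = 0.0733) and 29 of 31 probe sets higher. Hnrnpr lay the other way, with Sfpq-/- arrays at 10.61, 10.74 and 10.47 below controls at 10.80, 10.83 and 10.81 (log2 change -0.21, limma adjusted p = 0.13) and 31 of 36 probe sets lower. Hnrnpa1 was read through 7 kept probe sets of its own, since 34 more carry several gene symbols and were not used.

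Over single probe sets, 53 of 1010 passed against control (5.25%), beside 1.75% of all kept probe sets and 3.12% of those with a gene name. They came from 10 genes, 47 were lower and 6 higher, with 18 in Msi2, 14 in Srrm4 and 7 in Khdrbs2. In relative signal 38 passed (3.76%), beside 0.878% of 248590 probe sets, 20 of them higher and 18 lower. They came from 9 genes, with 14 in Msi2, 6 in Srrm4 and 5 in Khdrbs2. A higher relative signal can go with a lower signal, as in Srrm4 and Khdrbs2, where every kept probe set was lower. In Sfpq-/- against Sfpq+/- cortex 66 of 1010 passed (6.53%), beside 1.93% of all kept probe sets, and 33 in relative signal, beside 0.795%. In Sfpq+/- against control none passed in limma, beside 0% of all, and 32 had an unadjusted p under 0.05 (3.17%), beside 4.49% of all. The platform table gives no positions, so it cannot be said which exons these probe sets read.

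In Sfpq+/- against control cortex no gene of the set was called, beside 0% of all genes, with 3 of 45 under an unadjusted p of 0.05 (Srrm4, Celf2 and Nova2) beside 4.24% of all genes, in limma. The arrays of these 2 groups did not overlap for 5 of 45 genes (11.1%), beside 12.5% of all genes. All the same, 42 of 45 genes had a positive difference (93.3%), beside 61.2% of all genes, with a median of 0.08 against 0.03. With the median of probe sets in place of the mean, 30 of 45 were positive, with a median of 0.03. Control 3 was the lowest of its group for 34 of 45 genes (75.6%, beside 48.8% of all genes), and without it 29 of 45 differences between Sfpq+/- and control were positive, with a median of 0.01. Sfpq-/- 3 was likewise the lowest of its group for 35 of 45 genes (77.8%, beside 51.7%), and without it 31 of 45 differences between Sfpq-/- and control were positive, where with all arrays 23 were and without control 3 or without Sfpq-/- 2 there were 17. Sfpq+/- 3 was the lowest of its group for 25 of 45 genes (55.6%, beside 33.8%).

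Against Sfpq+/- cortex, Sfpq-/- cortex had 8 of 45 genes called (17.8%), beside 11.8% of all genes. The 7 lower ones, beside 7.25% of all genes, were Srrm4, Khdrbs2, Msi2, Rbfox1, Celf4, Elavl2 and Celf2, and Mbnl2 was the higher one, beside 4.58%. Rbfox1, Celf4 and Celf2 did not pass against control with the mean of their probe sets. All 3 passed there with the median signal on each array. The medians of their single probe set changes were -0.16, -0.43 and -0.22. In Sfpq+/- against control, which is the difference between the 2 comparisons, none of the 3 passed. Rbfox1 and Celf2 did with array weights estimated over all genes (limma adjusted p = 0.0475 and 0.0303). The estimate of those weights had not converged, and with them 5.15% of all genes were called in Sfpq+/- against control. Both Sfpq-/- comparisons use the same Sfpq-/- arrays. The Mbnl2 call was lost without control 2 or 3, Sfpq-/- 1 or 2, or any of the Sfpq+/- arrays, with limma adjusted p from 0.0539 to 0.165.

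All called genes were long ones. By RefSeq spans, 14 of the 45 genes cover at least 100 kb, and these held all 5 calls against control, 4 lower and 1 higher, with a median log2 change of -0.20. The 2255 tested genes of that length had 27% lower calls, 5.9% higher calls and a median of -0.07. Of the 17 genes from 20 to 100 kb and the 14 under 20 kb none was called, with medians of 0.04 and 0.09, beside 0.04 in each class over all genes. Calls were few in these classes over all genes too. They were 3.98% lower and 6.58% higher at 20 to 100 kb, and 1.86% lower and 5.55% higher under 20 kb. Spearman's rho of span and log2 change was -0.52 across the 45 genes, which share the same arrays, so it is a description. The rho over all genes was not computed. The longest were Rbfox1 at 1527.7 kb and Celf2 at 856.6 kb, with changes of -0.30 and -0.12 that did not pass. Srrm4 at 153.3 kb fell and Mbnl2 at 156 kb rose.

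**Figure D4:**
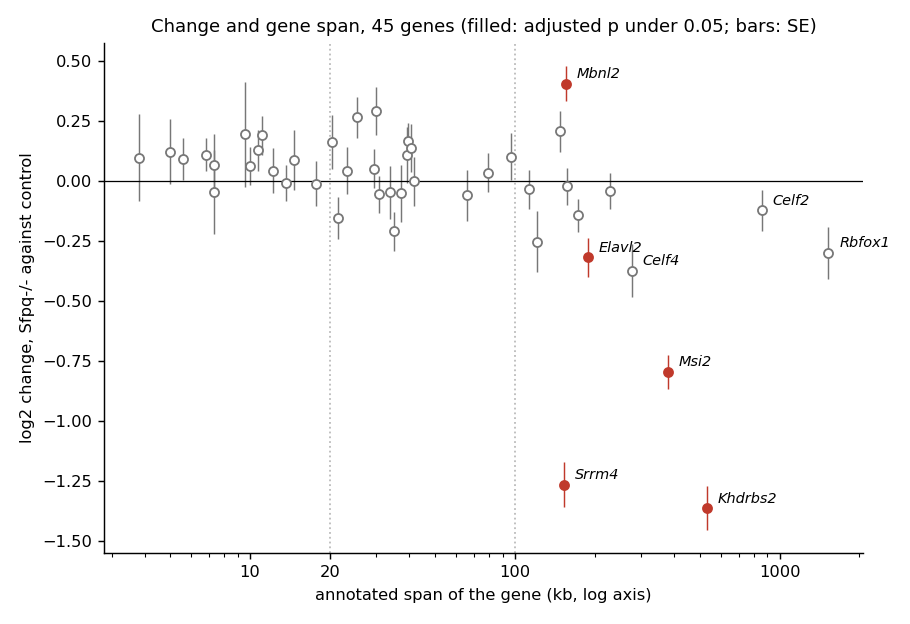
Log2 change in Sfpq-/- against control (vertical axis, bars are the standard error) by annotated gene span in kb (horizontal log axis) for the 45 genes, filled where called, with dotted lines at 20 and 100 kb. All filled points lie right of 100 kb, with Mbnl2 above 0 and Elavl2, Msi2, Srrm4 and Khdrbs2 below.

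Other genes of RNA binding and splicing gave 6 calls among 82 tested (7.32%) against control, beside 12.1% of all genes. Srsf4, an SR protein gene outside the set, was at 10.36, 10.33 and 10.12 in controls and 9.20, 9.27 and 9.20 in Sfpq-/- cortex (log2 change -1.05, limma adjusted p = 4.53e-05), and Pcbp3, a poly(C)-binding protein gene, fell by 0.77 (limma adjusted p = 5.24e-05). Lin28b (0.87, limma adjusted p = 0.0127) and Lin28a (0.37, limma adjusted p = 0.0317), which block let-7 maturation, rose. Of 7 kinase genes of SR proteins, Srpk2 (-0.25, limma adjusted p = 0.0339) and Clk3 (-0.24, limma adjusted p = 0.0496) fell. Of 27 genes of the core spliceosome none was called, 6 had an unadjusted p under 0.05, beside 24.2% of all genes, and 22 had a positive difference, beside 56.8% of all genes, with a median of 0.12.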

How the data were processed

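The deposited values are log2 signals, 1 for each of 1256831 probe sets on each of 9 arrays. The submitters' processing notes name the software as Affymetrix Expression Console 1.2.0.20. The background correction, array normalization, probe summary and genome build, not given in the sources used here, could not be checked. No further normalization was applied. Any step that scaled the arrays to like distributions would hide a shift common to all genes.

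Probe sets were named from the platform table, with symbols updated through unique RefSeq synonyms (3993 updated, 18006 current, 233 not updated because symbols would merge, 2 by hand for Tra2b and Celf2). Probe sets with several symbols (6684) were not used. Probe sets with a mean over all arrays above 5.64, the median of such means, were kept (628415), and a gene needed at least 3. All 9 arrays entered 1 fit of 3 group means in limma 3.58.1 (R 4.3.3), for genes, for probe sets and for probe sets relative to the other kept probe sets of their gene, with Benjamini-Hochberg adjustment over all features. Precision is limited by the 3 arrays in each group.

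The text describes in full each gene that passed in any comparison, each with a probe set that passed (the largest changes), and the smallest p of each family. The set and the other lists were chosen with earlier results of these data known. On simulated data for Sfpq-/- against control, the fit of 16854 genes found 58.2% of those shifted by 0.5 in log2 signal, 97% of those shifted by 1 and 100% of those shifted by 2, with 6 false calls. The fit of 628415 probe sets found 4% of 100 shifted by 1 and 57% of 100 shifted by 2 (3 false calls). That of 248590 relative signals found 32% and 82%, also of 100 each (8 false calls). The shifted features were far fewer than the 2040 genes and 11007 probe sets called in the data. The adjustment is stricter where fewer features change, so these shares do not measure how many changes were missed here. A probe set without a call may still have changed. Alternatives were the filter, quantile normalization, array weights, the variance prior, the median of probe sets, the replicate number as a block and each array left out.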

Additional observations from a re-analysis of the deposited data

How the results depend on the processing

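No called gene of the set changed direction under any alternative. The calls of Khdrbs2, Srrm4 and Msi2 held under all of them, in Sfpq-/- against control and against Sfpq+/-. With each array left out in turn, 4 to 7 genes were called in Sfpq-/- against control, 6 to 9 against Sfpq+/- and 0 in Sfpq+/- against control, with 1311 to 2453 calls over all genes, 41 to 49 probe sets of the set and 15 to 29 relative signals. The variance prior with an intensity trend gave 8 genes and 113 probe sets in Sfpq-/- against control, and no filter on low signal gave 24 relative signals. Array weights estimated over all genes gave 28 genes in Sfpq-/- against control, 4 in Sfpq+/- against control and 16 in Sfpq-/- against Sfpq+/-, 11465 calls over all genes, 87 probe sets and 63 relative signals; these weights ran from 0.215 to 30.149 and their estimate had not converged. Weights estimated gene by gene, chosen after seeing the data, gave 12 genes and 4612 over all genes. The cause of these shifts was not tested. The difference of Celf4 from control passed with the trended prior (limma adjusted p = 0.0371), with probe sets above 7 (0.0101) and with their median (0.00889). Without the filter the Elavl2 difference from control was -0.23 (limma adjusted p = 0.245).

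The titles number the samples 1 to 3 in each group. Deviations from the group means of same-numbered arrays correlated between -0.055 and 0.574. Those of number 2 ran from 0.006 to 0.050 and those of number 3 from 0.303 to 0.574. The correlation was not shared by all 3 numbers, so the numbers were not taken to pair the samples. Whether the arrays numbered 3 share a source was not tested. With the replicate number as a block, 6, 0 and 8 genes were called in the 3 comparisons (Celf4 added against control, limma adjusted p = 0.0253), with 2469 over all genes, 52 probe sets and 32 relative signals. Not every array correlated best with its own number.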
